A study of Homo sapiens with 4 samples.

Results

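The integrin and laminin genes were examined in m6A meRIP-seq peak lists of OE-19 cells, an established cell line of adenocarcinoma of the esophagogastric junction (AEG). N6-methyladenosine (m6A) is a methyl mark on adenosines inside mRNA, and in meRIP-seq an anti-m6A antibody pulls down the RNA fragments that carry it. The members were taken by gene symbol from the protein-coding genes of GENCODE version 44. Their symbols name an integrin alpha or beta subunit or a laminin chain, and not every such gene is reported. These gene families were picked with earlier results of these data known. The 37 genes reported, of 20046 protein-coding genes, comprise 26 that encode integrin subunits and 11 that encode laminin chains. The series comprised 4 samples of OE-19 cells, with no treatment or genotype in the labels, in which anti-m6A IP and input each had replicates 1 and 2. Only the IP samples had peak lists among the files, so values came from 2 lists of 1 group, with no control cells and no second condition. Replicate 1 held 24607 peaks and replicate 2 held 19318. OE-19 is a single line and nothing in the labels says that the replicates came from separate cultures, so the spread between the lists may be technical. The lists give no read numbers, and the depth behind each value is unknown.

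Integrins are receptors of 1 alpha and 1 beta subunit that span the plasma membrane and tie the matrix outside the cell to the cytoskeleton inside. Laminins are trimers of an alpha, a beta and a gamma chain, form the core network of the basement membrane under epithelia, and are ligands of several integrins. In stratified epithelia, the ITGA6 and ITGB4 pair binds laminin and builds hemidesmosomes, the junctions that anchor epithelium to its base. m6A in mRNA is typically placed at adenosines in short motifs such as GGAC, more often in long exons and around stop codons than elsewhere.

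For each member with a peak in both lists, the peak pair with the highest fold enrichment was taken, and the GGAC nearest to its summits was read from hg38 on the strand of the gene. The summit is the position of greatest enrichment inside a peak, and fold enrichment is the ratio that the peak caller gives there over its background. The sequences are shown because they are the closest candidate motifs under the reproducible peaks, each 25 nt long from 5′ to 3′, with that GGAC in capitals.
ITGA3: agagaggaggGGACcaattctggac
ITGA5: tggcagctctGGACagccccaccct
ITGA6: caatccctgaGGACtgatttcagag
ITGB5: aacgggagcgGGACctatgtctgcg
LAMB3: tgagccaatgGGACagttacacttg
LAMC1: gcaatctggaGGACatcaggaagac

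The ITGA3 motif lies at chr17:50090014-50090038 on the plus strand, in the 3′ UTR. Its A was 22 nt from the summit of replicate 1 and 49 nt from that of replicate 2, and the shared peak interval held 7 GGAC in all. The ITGA5 motif at chr12:54395804-54395828 on the minus strand was closer, at 2 and 11 nt from the summits, again in a 3′ UTR. The ITGA6 motif at chr2:172504336-172504360 on the plus strand was the only GGAC in its shared interval of 490 bp, and stood 56 nt from the summit in both lists. The ITGB5 motif at chr3:124796628-124796652 on the minus strand lies in the CDS, 18 and 20 nt from the summits. The LAMB3 motif at chr1:209615075-209615099 on the minus strand lies in the 3′ UTR, 12 and 7 nt from the summits. The LAMC1 motif at chr1:183142720-183142744 on the plus strand lies in the CDS and was 51 and 53 nt from summits that themselves fell beside the stop codon. The shared intervals of ITGA7 and LAMA5 held 0 GGAC over 172 and 135 bp, so no sequence is shown for them. A match describes the letters under a peak, and peak lists do not resolve which adenosine is methylated.

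The share of member summits near a GGAC was close to that of all exonic summits. Within 50 nt of the summit on the gene strand, it was found at 11 of 25 member summits in replicate 1 (44%, 95% Wilson interval 26.7 to 62.9%) and at 6 of 11 in replicate 2 (54.5%, 28 to 78.7%). Over all exonic summits of protein-coding genes the shares were 49.7% and 51.7%, inside those intervals. The same letters on the opposite strand, GTCC, were found at 36% and 36.4% of member summits, against 31.5% and 29.5% over all. The wider DRACH consensus was present at 17 of 25 and 8 of 11 member summits (68% and 72.7%), against 85.5% and 88.8% over all protein-coding genes. These intervals cover counting error only and take each summit as independent, although the summits came from 14 and 8 genes. They are wide, so a background share inside them does not show that the shares are equal.

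Of the 37 genes, 8 carried an exonic peak in both replicates. These were the integrin genes ITGA3, ITGA5, ITGA6, ITGA7 and ITGB5 and the laminin genes LAMA5, LAMB3 and LAMC1. A gene was counted when a peak summit fell in an exon of any of its transcripts. Over all protein-coding genes 33.4% had an exonic peak in both lists, and 44.7% did among the 9975 genes whose exonic length lies in the members' range of 4388 to 26419 bp, against 21.6% of the members. In replicate 1, 14 members had a peak (37.8%), against 42.4% of all protein-coding genes and 54.9% of those in the length range. In replicate 2, 8 members had a peak (21.6%), against 34.1% and 45.7%. The members' share was below each of these backgrounds, but in replicate 1 it was near that of all protein-coding genes. The length range is wide, and its genes were not matched to the lengths of the members. With 37 genes, a few genes move a share by several points, and no interval was computed for these shares. The members are long genes, with a median exonic length of 7896 bp against 4416 bp over all protein-coding genes. A peak needs both expressed RNA and enrichment, and low expression and low methylation cannot be told apart in these lists.

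The genes seen in 1 list only were all in replicate 1, namely ITGAE, ITGAV, ITGB1, ITGB4, LAMB1 and LAMB2. The other 23 members had no exonic peak in either list. They were ITGA1, ITGA2, ITGA2B, ITGA4, ITGA8, ITGA9, ITGA10, ITGA11, ITGAD, ITGAL, ITGAM, ITGAX, ITGB2, ITGB3, ITGB6, ITGB7, ITGB8, LAMA1, LAMA2, LAMA3, LAMA4, LAMB4 and LAMC3. By role, 3 of 3 laminin-binding alpha genes had a peak in both lists, against 0 of 4 collagen-binding alpha genes. Of the 4 alpha genes whose products bind the RGD motif of matrix proteins such as fibronectin, 1 did. None of the 5 alpha genes of leukocyte integrins and neither of ITGA4 and ITGA9 did. Of the 8 beta genes 1 did. Among the laminin genes reported here, the counts were 1 of 5 alpha, 1 of 4 beta and 1 of 2 gamma genes. These groups are small and the counts are descriptions.

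**Figure D1:**
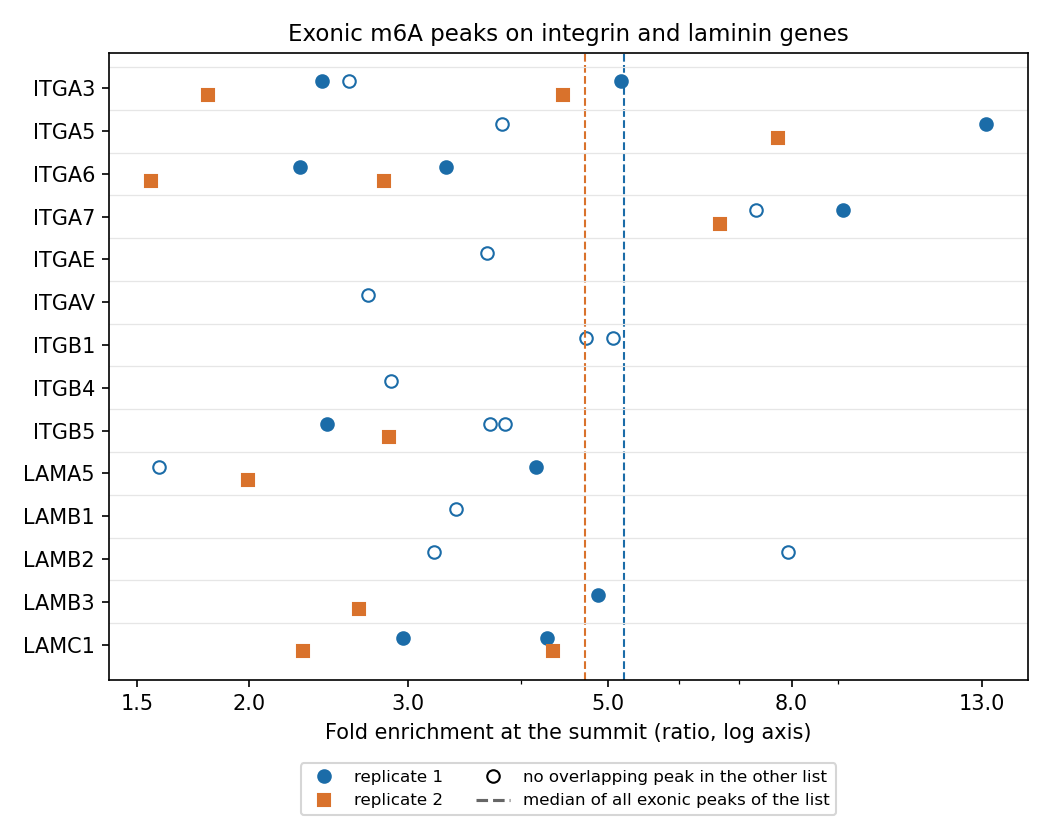
Fold enrichment at the summit (ratio, log axis) of every exonic peak on an integrin or laminin gene, by gene and replicate. Open symbols have no overlapping peak in the other list, and dashed lines are the medians of all exonic peaks on protein-coding genes (5.21 in replicate 1 and 4.72 in replicate 2). Of the member peaks, 4 of 25 and 2 of 11 lie to the right of their line.

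Most peaks on these genes had a low fold enrichment. The median was 3.70 over 25 peaks in replicate 1 (range 1.59 to 13.1) and 2.82 over 11 peaks in replicate 2 (range 1.56 to 7.73). The medians over all exonic peaks on protein-coding genes were 5.21 and 4.72. The member peaks above those medians belonged to ITGA5, ITGA7 (2 peaks) and LAMB2 in replicate 1 and to ITGA5 and ITGA7 in replicate 2. Member peaks were also narrower, with a median width of 267 bp against 318 bp in replicate 1 and of 332 bp against 367 bp in replicate 2. The number of peaks per gene with a peak averaged 1.79 and 1.38, against 2.28 and 1.84 over all protein-coding genes.

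The q-values ranked most of these peaks higher than the fold enrichment did. The −log10 q of a peak grows with both its enrichment and the number of reads under it. The median −log10 q of the member peaks was 13.5 in replicate 1 and 13.91 in replicate 2, against 12 and 13.45 for all exonic peaks, and 13 of 25 and 6 of 11 lay above the list median. The percentile of a peak within its list was higher for −log10 q than for fold enrichment in 17 of 25 and 9 of 11 cases. No such count over all exonic peaks, or over peaks of similarly low fold enrichment, is given here. Peaks ranked low by 1 measure tend to rank higher by another, so the counts are not read as a trait of these genes. For the ITGA6 peak in the last exon, the fold enrichment stood at percentiles 19.4 and 15 and −log10 q at 82.7 and 81.3. For the ITGA3 peak in the 3′ UTR the percentiles were 49.3 and 45.5 against 95.8 and 97.4. ITGA7 was the opposite case, at 83.6 and 75.2 for fold enrichment and 57.8 and 41.5 for −log10 q.

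**Figure D2:**
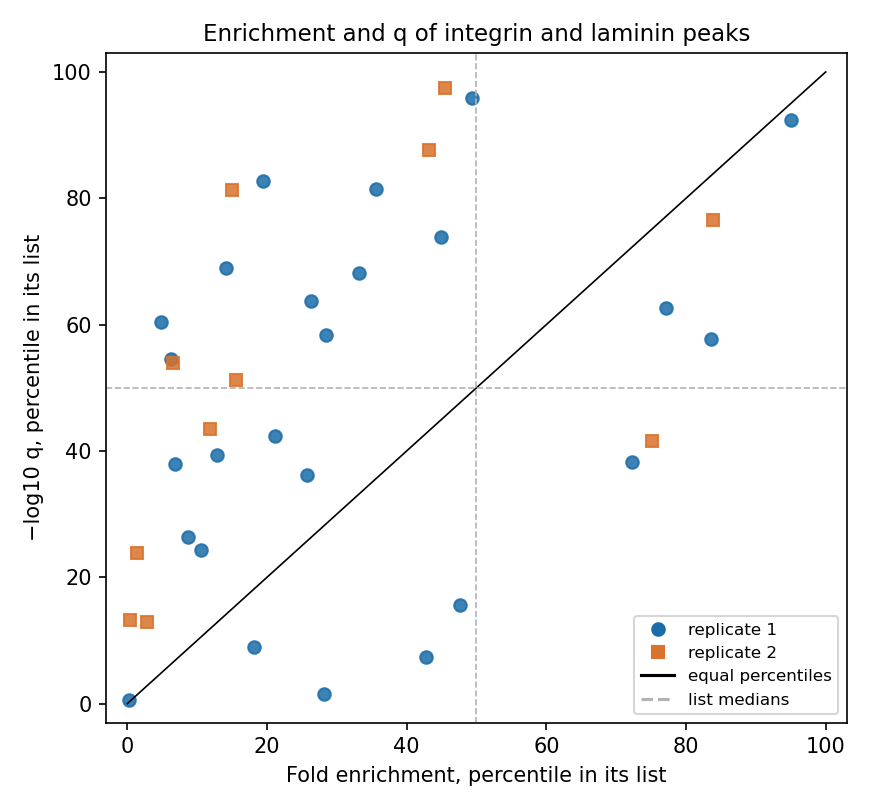
Percentile of fold enrichment (x axis) and of −log10 q (y axis) of each integrin and laminin peak among the exonic peaks of its own list. Points above the diagonal, 17 of 25 in replicate 1 and 9 of 11 in replicate 2, rank higher by q than by enrichment.

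Every member peak of replicate 2 overlapped a peak of replicate 1. Of the 25 peaks of replicate 1, 11 overlapped a peak of replicate 2 (44%, 95% Wilson interval 26.7 to 62.9%), whereas all 11 of replicate 2 did in return (100%, 74.1 to 100%). The shares over all protein-coding genes were 60.5% and 95.9%. In the resulting 11 pairs, the summits lay a median of 19 bp apart and at most 63 bp. The fold enrichment was higher in replicate 1 in 9 of the 11 pairs, and the log2 ratio of replicate 1 to replicate 2 had a median of 0.42. Over all protein-coding genes, 80.6% of 10853 paired peaks were higher in replicate 1, and the median log2 ratio was 0.44. The exceptions were the ITGB5 pair, at 2.44 in replicate 1 and 2.86 in replicate 2, and the LAMC1 pair at the stop codon, at 4.28 and 4.34. The geometric mean fold enrichment of the member pairs had a median of 3.06, against 5.63 over all pairs.

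**Figure D3:**
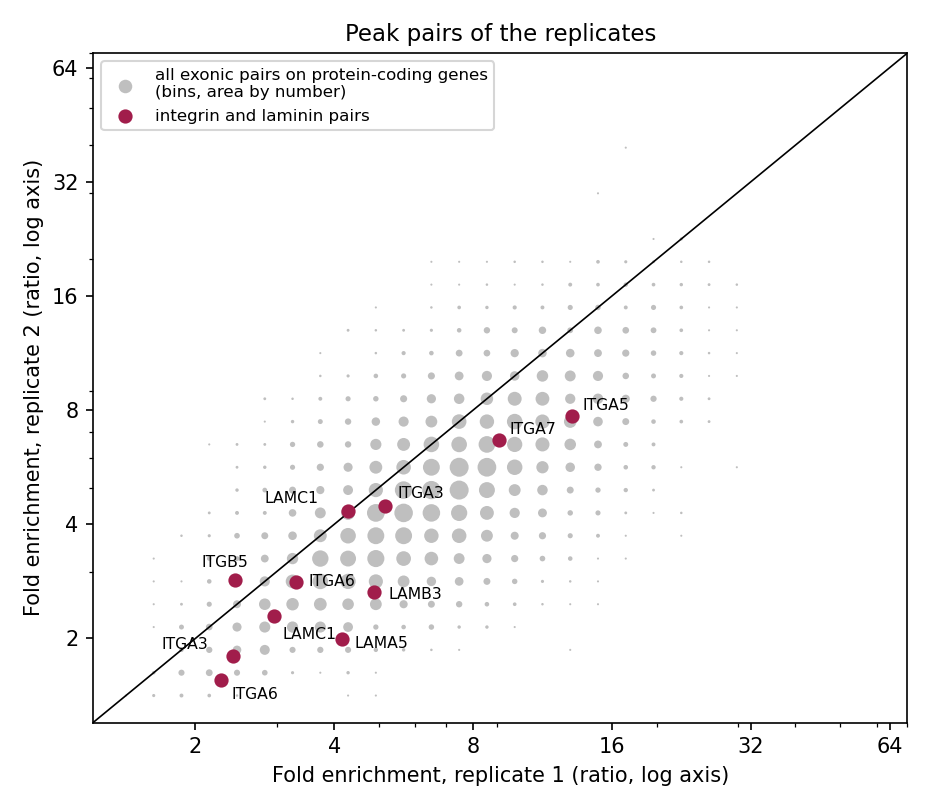
Fold enrichment in replicate 1 (x axis) and replicate 2 (y axis) of paired peaks, both as ratios on log axes. Grey circles are bins of the 10853 exonic pairs on protein-coding genes, with area by number, and red points are the 11 integrin and laminin pairs. Of the red points, 9 lie below the line of equality, and ITGA5 and ITGA7 have the highest geometric means.

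The laminin-binding alpha genes ITGA3, ITGA6 and ITGA7 all had a reproducible peak in the last exon. ITGA3, whose product pairs with ITGB1 and binds epithelial laminins, had its main peak at chr17:50089118-50090414, in the last of 26 exons of the Ensembl canonical transcript. Its fold enrichment was 5.17 in replicate 1 and 4.46 in replicate 2, with the summits 928 and 901 nt past the stop codon. This was the widest member peak in both lists, at 1297 and 1245 bp. A second ITGA3 peak in exon 1, in the 5′ UTR, was weaker, at 2.41 and 1.80. Another ITGA3 peak, 22 nt past the stop codon in exon 25, was called in replicate 1 only, at 2.58. ITGA3 has transcripts with different 3′ ends, and none of these summits lies on its transcript with the longest CDS.

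ITGA6, the partner of ITGB4 in hemidesmosomes, had 2 peaks in each list. The peak in its last exon, at chr2:172504189-172504756, had fold enrichments of 3.31 and 2.82 and the same summit base in both lists. That summit lies 154 nt past the stop codon of the transcript with the longest CDS and 338 nt past that of the canonical transcript. The peak in exon 1 had fold enrichments of 2.28 and 1.56, and its summits lay on either side of the start codon, at 190 and 227 nt from the transcript start. These exon 1 summits also lie in an exon of the lncRNA gene ENSG00000226963, and the lists carry no strand to separate the genes.

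ITGA7, best known as the laminin receptor of muscle, had the second highest enrichment of the members. The peak at chr12:55684994-55685251 lies in the last exon, 50 and 28 nt upstream of the stop codon, with fold enrichments of 9.12 and 6.66. Replicate 1 had another peak at 7.31 in exon 25, an internal exon of 126 nt, with its summit 256 nt upstream of the stop codon.

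Of the RGD-binding alpha genes, ITGA5 had the strongest peak of the members and ITGAV a weak peak in replicate 1. ITGA5 encodes the alpha subunit of the fibronectin receptor. Its peak at chr12:54395349-54396265 lies in the last exon, in the 3′ UTR, 477 and 490 nt past the stop codon. The fold enrichment was 13.1 in replicate 1 and 7.73 in replicate 2, and the geometric mean of 10.1 stood at percentile 89.8 of all exonic pairs. Replicate 1 also had an ITGA5 peak in exon 1, at 3.82 with a −log10 q of 1.60, close to the limit of the list. ITGAV, which forms vitronectin receptors with several beta subunits, had its only peak in exon 1, at 2.71.

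Among the beta genes, only ITGB5 had a peak in both lists. ITGB5 pairs with ITGAV, and its shared peak lies in the CDS, in exon 10, at chr3:124796472-124796733, with fold enrichments of 2.44 and 2.86 and summits 2 bp apart. Replicate 1 alone had an ITGB5 peak 168 nt past the stop codon at 3.70 and another 47 nt from the transcript start at 3.85. Both were higher in fold enrichment than the peak found in both lists. ITGB4, which carries a long cytoplasmic tail and forms hemidesmosomes with ITGA6, had a peak in the 5′ UTR in exon 1 at 2.87 in replicate 1. ITGB1, the most widely shared beta subunit, had 2 peaks in replicate 1, at 5.06 and 4.73. They lie in an exon of alternative ITGB1 transcripts only, outside the transcript with the longest CDS and outside the canonical transcript.

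The only leukocyte alpha gene counted, ITGAE, shared its peak with another gene. The summit, in replicate 1 at 3.67, also lies in an exon of HASPIN, a single-exon kinase gene inside an ITGAE intron. HASPIN itself had a peak in that intron in both lists, at 11.5 and 7.93. ITGA1 likewise had no exonic peak of its own, while PELO, a ribosome rescue factor gene inside an ITGA1 intron, had peaks at 12.9 in replicate 1 and 12.4 in replicate 2. These values were given to the inner genes by position and were not counted for the integrins. HASPIN lies on the opposite strand to ITGAE, and PELO on the same strand as ITGA1. The lists carry no strand, so signal from RNA of the host introns cannot be told apart from that of the inner genes.

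The laminin genes with reproducible peaks were LAMA5, LAMB3 and LAMC1. LAMA3 and LAMB3 encode chains of the laminin of hemidesmosomes, and LAMA3 had no exonic peak. The LAMB3 peak, at chr1:209614962-209615378, lies in the last exon 198 and 179 nt past the stop codon, with fold enrichments of 4.88 and 2.65.

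Of the trimer of LAMA5, LAMB1 and LAMC1, the alpha and gamma chains had peaks in both lists. LAMC1, the gamma chain of most laminins, had its summits 5 and 3 nt upstream of the first base of the stop codon, at chr1:183142603-183143055, with fold enrichments of 4.28 and 4.34. Its second pair, in the CDS of exon 1, was weaker at 2.96 and 2.29. LAMA5 has the longest CDS of all the members, and its shared peak lies in exon 1, at chr20:62367074-62367242. The fold enrichment there was 4.16 in replicate 1 and 1.99 in replicate 2, the widest ratio among the 11 pairs (log2 1.06). A LAMA5 peak in exon 30 was at 1.59 with a −log10 q of 1.34 in replicate 1, the lowest of the member peaks of that list on both measures. LAMB1 and LAMB2, alternative beta chains, had peaks in replicate 1 only. LAMB1 had a peak in exon 25 at 3.39, and LAMB2 had peaks in exon 1 at 7.92 and in exon 27 at 3.21. The LAMB2 peak in exon 1 stood at percentile 77.1 of its list and was the strongest member peak without a counterpart in the other list.

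**Figure D4:**
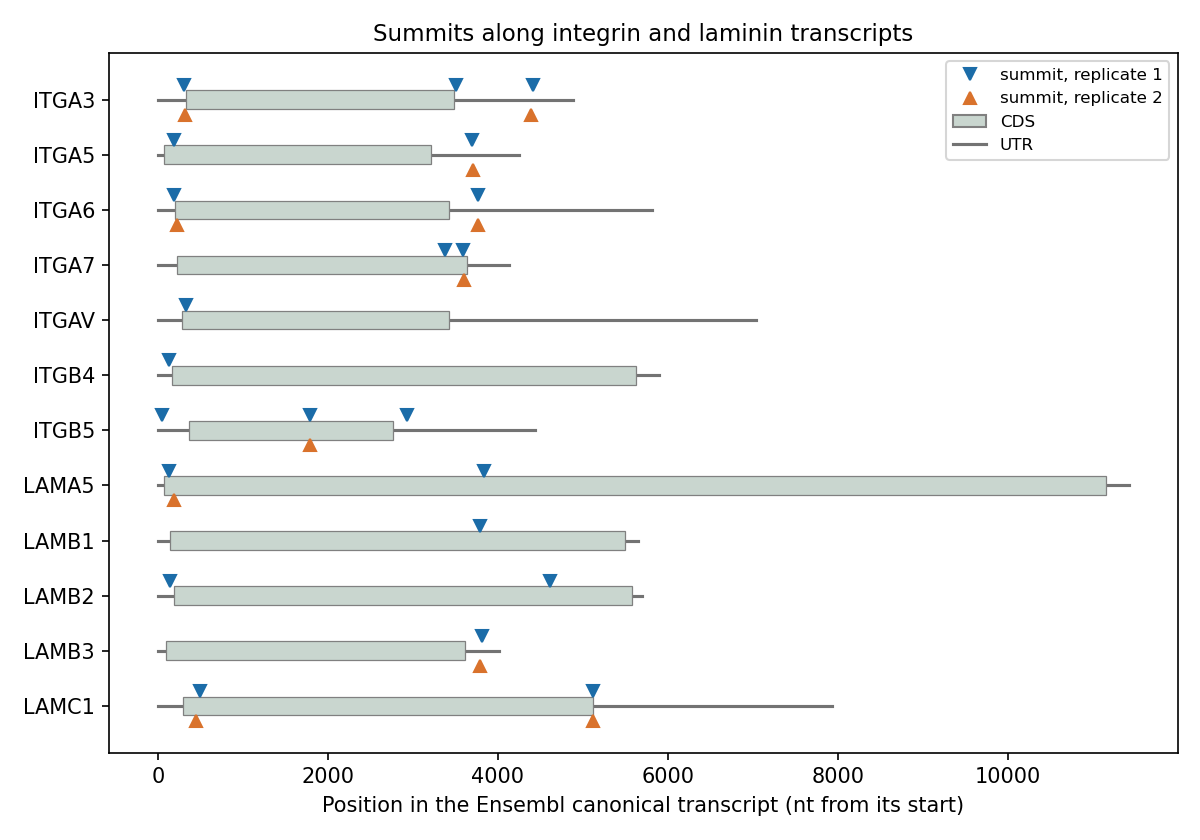
Summits on the Ensembl canonical transcripts of 12 integrin and laminin genes, in nt from the transcript start, with the CDS as a box and the UTRs as a line. Downward triangles are replicate 1 and upward triangles replicate 2. Summits gather in the first exon and toward the 3′ end, and ITGB5 has the only paired summits in the middle of a CDS; the ITGAE and ITGB1 summits lie outside these transcripts.

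First and last exons held most of the member peaks. In replicate 1, 9 of 25 summits lay in a first exon (36%), 6 in an internal exon (24%) and 7 in a last exon (28%), and the remaining 3 lay on neither the transcript with the longest CDS nor the canonical one. In replicate 2, 4 of 11 lay in a first exon (36.4%), 1 in an internal exon (9.09%) and 6 in a last exon (54.5%). Over all protein-coding genes, first exons held 13.2% and 8.62% of the summits, internal exons 30.8% and 27.8%, and last exons 44.8% and 52.8%. The share of first exons was therefore above that of all genes in both lists, and that of internal exons below it. All 4 first-exon peaks of replicate 2 overlapped a peak of replicate 1, so the lists are not separate sets of sites. With so few summits, 1 summit moves a share by several points.

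The median fold enrichment of the first-exon peaks was lower than that of the last-exon peaks in both lists, and in replicate 1 the ranges overlapped. The 9 first-exon peaks of replicate 1 came from 9 genes, and their summits lay 47 to 501 nt from the start of the canonical transcript, 6 of them within 200 nt. The 4 of replicate 2 lay 193 to 444 nt from it, 1 of them within 200 nt. The median fold enrichment of the first-exon peaks was 2.96 in replicate 1 (range 2.28 to 7.92) and 1.90 in replicate 2 (range 1.56 to 2.29). For the last-exon peaks it was 4.88 (range 3.31 to 13.1) and 4.40 (range 2.65 to 7.73). The LAMB2 first-exon peak lay above 5 of the 7 last-exon peaks of replicate 1. Over all protein-coding genes the medians were 4.64 and 3.96 in first exons and 5.68 and 4.97 in last exons. In replicate 1, 4 of 9 first-exon peaks overlapped a peak of the other list (44.4%), against 6 of 7 in last exons (85.7%). The shares over all protein-coding genes were 40.2% and 71.3%. The antibody also binds N6,2′-O-dimethyladenosine, a mark next to the mRNA cap, so a peak close to a start may hold either mark, and the lists cannot tell them apart.

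On the transcript with the longest CDS, 19 summits could be placed in replicate 1 and 9 in replicate 2. The window reaching 200 nt to either side of the stop codon held 5 of 19 (26.3%) and 4 of 9 (44.4%), against 24.6% and 27.2% over all protein-coding genes. The rest of the 5′ UTR held 4 (21.1%) and 0 summits, against 8.94% and 5.77%. The rest of the CDS held 9 (47.4%) and 4 (44.4%), against 48.9% and 47.8%, and the rest of the 3′ UTR held 1 (5.26%) and 1 (11.1%), against 17.5% and 19.1%. Over both lists, the share in the stop codon window was 32.1% on these transcripts and 24.2% on the canonical transcripts. In these pooled shares, a peak found in both lists was counted once per list. The ITGA3 summits could be placed only on the canonical transcript, and the last-exon summit of ITGA6 falls in the window only on the transcript with the longest CDS. The share therefore depends on the transcript used, and with so few summits, 1 summit moves a share by several points.

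Integrin and laminin genes are built of many short exons, and internal peaks fell in both long and short ones. Of the 6 internal summits of replicate 1, 3 lay in exons over 300 nt (50%), against 59% over all protein-coding genes, and the single internal summit of replicate 2 did as well. The transcripts with the longest CDS have 1102 internal exons with a median length of 131 nt, of which 12 are over 300 nt (1.09%). Over all protein-coding genes there are 169465 internal exons with a median of 123 nt, of which 4.3% are over 300 nt. Of the 12 long internal exons of the members, 3 held a summit in at least 1 list (25%), compared with 2 of the 1090 shorter ones (0.183%). Over all protein-coding genes the shares were 41.7% of the long and 1.6% of the shorter internal exons. These shares include genes without any peak. Among members with an exonic peak, the shares were 3 of 6 long internal exons (50%) and 2 of 403 shorter ones (0.496%). Among all protein-coding genes with an exonic peak, they were 69.1% and 3.3%. The exons with a summit were exon 10 of ITGB5 at 430 nt, the longest of its 13 internal exons, exon 25 of LAMB1 at 370 nt, the longest of 32, and exon 27 of LAMB2 at 349 nt, second of 30. The shorter ones were exon 30 of LAMA5 at 202 nt and exon 25 of ITGA7 at 126 nt. The sixth internal summit, in exon 25 of ITGA3 at 142 nt, lies on the canonical transcript and is outside these exon counts.

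**Figure D5:**
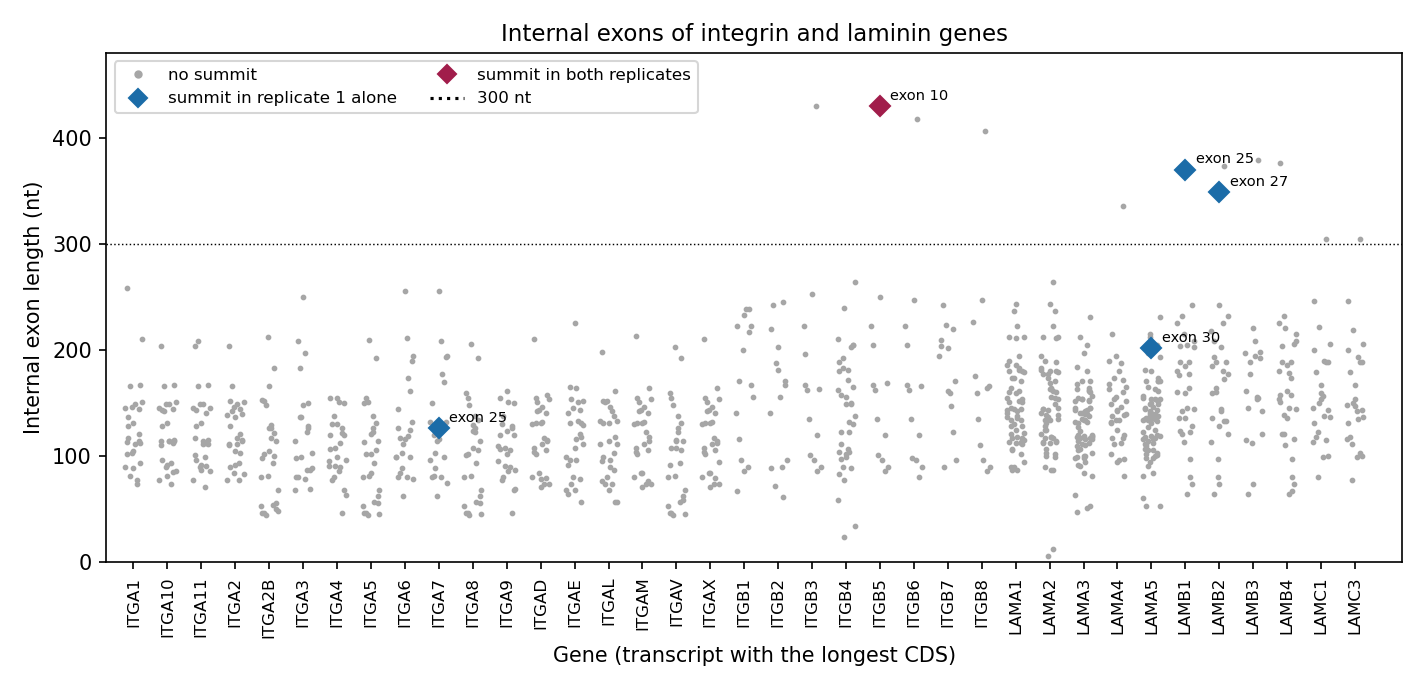
Length in nt of each internal exon (points) of the 37 integrin and laminin genes, on the transcript with the longest CDS. Diamonds are exons that hold a summit, and the dotted line is at 300 nt. Of the 12 exons above the line 3 hold a summit, and exon 10 of ITGB5 is the only internal exon marked in both replicates.

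The same long exon 10 recurs in other beta genes without a peak. Exon 10 has 430 nt in ITGB3, 418 nt in ITGB6 and 406 nt in ITGB8, and none of these genes had an exonic peak in either list. The other long internal exons without a summit were exon 2 of LAMA4 (336 nt), LAMC1 (305 nt) and LAMC3 (305 nt), exon 24 of LAMB2 (373 nt), exon 13 of LAMB3 (379 nt) and exon 25 of LAMB4 (376 nt). Summits in the CDS lay in exons with a median length of 370 nt in replicate 1 and 508 nt in replicate 2, counting first and last exons. The medians over all protein-coding genes were 738 and 1260 nt.

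Genes whose products work with integrins and laminins were counted in the same way. They were picked with earlier results of these data known, and no background was matched to their lengths. Their shares are therefore descriptions. For reference, 33.4% of all protein-coding genes had an exonic peak in both lists, and 44.7% of those in the members' length range did. Of 25 genes for adaptors and signalling proteins at integrin tails, 14 had an exonic peak in both lists (56%). The highest were PARVA, which links integrin-linked kinase to actin, at 6.89 and 11.6, TNS3, which encodes a tensin, at 10.9 and 7.12, and PXN, the gene for the scaffold paxillin, at 8.33 and 8.09. Of 9 genes for hemidesmosome parts and other laminin receptors, 6 did (66.7%). The highest were DST at 8.80 and 9.69 and PLEC at 8.61 and 6.003, both encoding plakins that join hemidesmosomes to keratin, and BCAM, a laminin receptor of the immunoglobulin family, at 6.77 and 5.93. Of 15 other basement membrane and matrix genes, 4 did (26.7%), led by COL18A1, a basement membrane collagen, at 15.4 and 16.4. NTN4, a netrin related to laminins, had 5.002 and 4.80, and HSPG2, the gene for perlecan, had 4.28 and 2.22.

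The cell label was checked on markers as far as peak lists allow. Of 7 epithelial markers, CDH1 (4.47 and 3.86) and CLDN4 (2.84 and 2.39) had a peak in both lists, and EPCAM and the keratin genes KRT7, KRT8, KRT18 and KRT19 had none. Of 5 leukocyte markers, CD14 had a peak in both lists, at 10.5 and 9.82. Of 4 fibroblast markers only COL1A1 had a peak, in replicate 1, and none of 3 endothelial markers did. A gene without a peak is not shown to be unexpressed, so the lists neither support nor contradict the label.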

How the data were processed

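Per the labels, OE-19 cells were fixed with UV and lysed, whereas the study's methods describe fragmentation of DNase-treated RNA before the anti-m6A IP. The labels' processing notes name fastp, HISAT2, MACS2 and hg38, and the methods name TopHat2 in place of HISAT2; releases are not given in the sources used here, nor whether input served as the control. The authors deposited 1 list per IP sample, with the fold enrichment at the summit as a ratio over the caller's background, −log10 of the p-value and q-value, and a score. The p-value and the score, like the unset strand, were not used. The highest q was 0.0491 and 0.0497. The lists hold no read counts, so precision rests on the number of peaks.

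Coordinates are 1-based on hg38, with exons and transcripts from GENCODE version 44. A summit in an exon was given to its gene, with protein-coding genes first, and summits in exons of several protein-coding genes counted for each. Regions used the transcript with the longest CDS, or the canonical one where stated. Peaks were shared at an overlap of at least 1 bp, and paired with the peak of largest mutual overlap. With 2 lists of 1 group, no test was made. The members and lists were chosen with earlier results of these data known. Every member with a peak was named, and of each related list the 3 genes with the highest geometric mean. Placement and overlap were tested on simulated data. Python 3.11.15, numpy 2.4.6, scipy 1.17.1 and matplotlib 3.10.9 were used. No input values were analysed here, and some genes are not reported here.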

Additional observations from a re-analysis of the deposited data

Results flagged for a closer look

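Some summits lay in introns of member genes, outside every exon, and entered none of the counts above. There were 6 such summits in replicate 1 and 3 in replicate 2, and 2 of the sites were seen in both lists. In LAMA2, the alpha chain of muscle laminin, a peak with a fold enrichment of 10.04 in replicate 1 (summit at chr6:129157406) and 10.82 in replicate 2 (summit at chr6:129157428) lay 2723 and 2745 bp from the nearest LAMA2 exon. This gene had no exonic peak. In ITGA7, a peak with 4.482 in replicate 1 (summit at chr12:55685638) and 4.443 in replicate 2 (summit at chr12:55685587) lay 350 and 299 bp from the nearest exon. The lists carry no strand, so these peaks are placed by position alone. The intronic summits without a counterpart were in ITGA7 (7.70), ITGAL (5.12), LAMA2 (5.68) and LAMA3 (4.01) in replicate 1 and in LAMA3 (4.55) in replicate 2.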

How the results depend on the processing

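Of 38 changes of a single setting other than leaving out a list, 31 stayed within the spread between the replicates or within 1.5 times the count, and 7 did not. Some of these outcomes were fixed in advance. ITGBL1, a gene outside the members added in 1 change, had no exonic peak, and a lower limit on fold enrichment must raise its median. For the share of shared peaks, the spread was 39.6 percentage points, too wide for these changes to leave it. The count of 31 is therefore no measure of robustness. With a fold enrichment of 5 or more, 2 genes remained in both lists, ITGA5 and ITGA7, and 8 peaks in place of 36. A limit of 5 is close to the background medians of 5.21 (replicate 1) and 4.72 (replicate 2). No values over all protein-coding genes are given for it, so the drop is not read as a trait of the members. Under that limit the median fold enrichment was 7.52 against 3.53, the median exon length at CDS summits 586 nt against 430 nt and the share of summits with GGAC 37.5% against 47.2%. The share in the stop codon window was 32.1% over both lists and 14.3% with a window of 100 nt. The share with GGAC was 75% within 100 nt. A wider window can only raise this share, and no share over all protein-coding genes is given for it. Leaving out a list gave 8 to 14 genes, 11 to 25 peaks and a median fold enrichment of 2.82 to 3.70, and replicate 2 alone gave the lower values. Counting any overlap with an exon added ITGAE, for 9 genes in both lists. ITGAE had no exonic summit in replicate 2, where the HASPIN peak lies inside the gene, so the overlap may belong to HASPIN. Unknown depth limits all values, and with 2 lists no spread within a list could be had. No paired analysis was possible because the input samples had no values here.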
